A study of Homo sapiens with 20 samples.

Results

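The mRNAs of 9 BCL2 family proteins and of the death receptor DR5 were followed in human keratinocytes with and without the kinase GCN2, to ask whether high mRNA of the transcription factor CHOP (gene DDIT3) went with the expression of genes that promote apoptosis. The 10 genes were taken by name from the 57500 genes listed for each library, and all 10 were found. By role they are the BH3-only genes BBC3 (PUMA), PMAIP1 (NOXA), BCL2L11 (BIM) and BID, the effectors BAX and BAK1, the pro-survival genes BCL2, BCL2L1 (BCL-XL) and MCL1, and TNFRSF10B, which encodes DR5. RNA-seq was performed on 20 cultures of NTERT cells, an immortalized human keratinocyte line, 5 for each pair of genotype (WT or GCN2KO) and state (unwounded or HDW), which makes 4 groups. HDW is high-density wounding, in which a grid of scratches is made through a confluent, differentiating monolayer to raise the number of cells next to a gap. The share of such cells is not given, and the RNA also comes from cells away from a gap. RNA was taken 6 h after HDW. The GCN2KO cells were an early-passage pool, not a clone, made with CRISPR-Cas9 guides to GCN2, and per the methods all groups were switched to medium with serum and calcium before wounding. The labels give no separate source for the 5 replicates of a group, so p-values measure the spread between these cultures of 1 line, and differences between the genotypes are also differences between 2 cell populations.

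In the intrinsic pathway of apoptosis, BH3-only proteins bind and neutralize pro-survival proteins or activate BAX and BAK1 directly, and the activated effectors open the outer mitochondrial membrane and release cytochrome c. DR5 is a receptor for the ligand TRAIL and starts the extrinsic pathway through caspase-8, which can cleave BID and so join both pathways. CHOP is induced by ATF4 when eIF2α is phosphorylated, and in cells under unresolved stress it is known for raising the genes of BIM, PUMA and DR5 and lowering that of BCL2. The paper reports that phosphorylated eIF2α was lower in GCN2KO than in WT cells, unwounded and after HDW. It also reports that ATF4 protein rose after wounding in both genotypes. It gives no measurement of CHOP protein, so DDIT3 mRNA is not read here as CHOP protein or activity. Much of the control over the BCL2 family proteins and DR5 acts on protein stability and binding, which mRNA does not show. In bulk RNA, fewer cells expressing a gene and less RNA per cell cannot be told apart.

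The libraries held 14083504 to 34611570 counts on genes. Levels are given as CPM, counts relative to the library total after TMM scaling, a normalization that sets libraries to a common scale by the bulk of their genes. EIF2AK4, the gene of GCN2, lay at 28.02 to 33.4 CPM in the 10 GCN2KO libraries and at 138 to 158 CPM in the 10 WT libraries. The summed level of 7 keratinocyte markers was 12133 to 12523 CPM in WT unwounded, 13741 to 14657 in WT HDW, 12886 to 15416 in GCN2KO unwounded and 16234 to 17643 CPM in GCN2KO HDW libraries, with KRT1 under 1 CPM in every group mean. In GCN2KO unwounded against WT unwounded cells 2 of the 7 were called higher and 4 lower. Of the basal genes, KRT5 was at 0.50 (log2), KRT14 at -0.85, TP63 at -0.52 and ITGA6 at -0.73, and of the differentiation genes IVL was at 1.83, KRT1 at -1.06 and KRT10, which was not called, at 0.23. The part of these differences in the genotype differences of the members was not tested. In contrast, 5 endothelial and immune markers summed to at most 4.18 CPM and 4 melanocyte markers to at most 3.49 CPM, with TYR at 0 in every group. The sum for 6 fibroblast markers was 23.1 to 36.1 CPM. In a principal component analysis, libraries 1 of GCN2KO unwounded and 5 of GCN2KO HDW lay nearest to the WT libraries, and libraries 2 and 4 of GCN2KO unwounded lay nearest to the wounded ones. Leaving out libraries 2 and 4 kept the direction and call of 8 of 9 members between the genotypes without wounds and of 10 of 10 for HDW in GCN2KO cells. Leaving out libraries 1 and 5 kept 9 of 9 and 8 of 10, and 10 of 10 between the genotypes after HDW, and the members that changed are given with their values.

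CHOP mRNA was lowest in WT unwounded cells, higher in WT HDW cells, and highest in GCN2KO cells whether wounded or not. DDIT3 (ENSG00000175197, chr12:57516588-57521737, minus strand, GRCh38) was at 15.8, 31.3, 19.4, 32.6 and 24.6 CPM in WT unwounded and at 60.7, 89.3, 75.2, 64.9 and 73.1 CPM in WT HDW libraries. In GCN2KO unwounded libraries it was at 138, 166, 209.9, 172 and 207 CPM, and in GCN2KO HDW libraries at 151, 153, 152, 164 and 129 CPM. All 10 GCN2KO libraries lay above all 10 WT libraries, the WT groups did not overlap, and both GCN2KO groups overlapped. Tests were made with edgeR's quasi-likelihood F test on the counts of both groups, with Benjamini-Hochberg adjusted p-values over all genes tested, and a gene was called at an adjusted p of at most 0.05. The log2 fold change of DDIT3 was 2.85 for GCN2KO against WT in unwounded cells (adjusted p = 6.97e-10 by edgeR, SE 0.17), a fold of 7.21, and 1.04 after HDW (adjusted p = 1.75e-07 by edgeR, SE 0.091), a fold of 2.06. After HDW it rose by 1.53 on the log2 scale in WT cells (adjusted p = 6.52e-07 by edgeR, SE 0.15), and in GCN2KO cells its log2 fold change was -0.25 (adjusted p = 0.0999 by edgeR, SE 0.10). Without library 1 of GCN2KO unwounded the latter was -0.33 (edgeR adjusted p = 0.0274), and without it and library 5 of GCN2KO HDW -0.28 (edgeR adjusted p = 0.04). The 2 responses to HDW differed by -1.80 on the log2 scale (GCN2KO minus WT, adjusted p = 8.73e-07 by edgeR, SE 0.20).

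Of the exonic bases of DDIT3, 39.6% also belong to other genes, mainly MARS1 on the opposite strand with 27.2%, and the strand setting of the counting is not given in the sources used here. MARS1, a tRNA synthetase gene, had 144138 counts over all libraries against 63722 of DDIT3. It moved by 1.15 (log2, adjusted p = 4.89e-08 by edgeR, SE 0.10) with genotype in unwounded cells and by -0.15 (adjusted p = 0.0285 by edgeR, SE 0.057) after HDW, where DDIT3 was higher. With HDW in WT cells MARS1 moved by 1.22, beside 1.53 for DDIT3, and in GCN2KO cells by -0.060, beside -0.25. The difference between both responses was -1.29 for MARS1, beside -1.80 for DDIT3. The part of the shared bases in the counts of DDIT3 was not tested. ATF4, the activator of DDIT3, averaged 512 ± 38.6 CPM in unwounded WT cells and 647 ± 12.5 CPM after HDW, and in GCN2KO cells 748 ± 66.00 and 622 ± 38.7 CPM (SD, n = 5). It was higher in GCN2KO than in WT unwounded cells by 0.55 (log2, adjusted p = 9.84e-06 by edgeR, SE 0.077). After HDW the difference was -0.058 (adjusted p = 0.261 by edgeR, SE 0.045), and -0.10 (edgeR adjusted p = 0.0183) without library 5 of GCN2KO HDW.

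The 10 members did not move in 1 direction. In unwounded cells, 9 members could be tested between the genotypes, BCL2 having too few counts. The 4 members BCL2L1, PMAIP1, TNFRSF10B and BAK1 were higher in GCN2KO cells (33.4% of all genes tested) and the 3 BH3-only genes BCL2L11, BID and BBC3 were lower (33.1% of all), while BAX and MCL1 did not pass. These 7 called members stand beside 66.5% of all 15348 genes tested that were called in this comparison, so being called does not set them apart. For each of the 7 the ranges of the groups did not overlap, which held for 53.3% of all genes. None had a log2 fold change of 1 or more in size, the study's threshold for a DE gene, which 16.4% of all genes passed at the same adjusted p. The median log2 fold change of the 9 was 0.036, beside 0.0042 over all genes.

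After HDW, all 10 members were tested between the genotypes and 7 were called, beside 71.7% of all 15855 genes. The 5 members BCL2L1, TNFRSF10B, BAK1, MCL1 and BAX were higher in GCN2KO cells, beside 35.9% of all genes, and the 2 members BID and BCL2L11 lower, beside 35.8%. The ranges of 6 did not overlap (57.2% of all genes), and BCL2L1 was the member that passed the threshold for a DE gene (14.9% of all genes). No BH3-only gene was called higher in GCN2KO HDW than in WT HDW cells, at 149.6 against 72.6 CPM of DDIT3.

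HDW itself called 3 of 9 members in WT cells, beside 51.3% of all 15348 genes, with PMAIP1 higher (26.1% of all) and BCL2L11 and BAX lower (25.2%), and the ranges of these 3 did not overlap (36.9% of all genes). In GCN2KO cells it called 4 of 10, beside 22.7% of all 15791 genes, with MCL1 and BCL2 higher (11.9% of all) and PMAIP1 and BAK1 lower (10.8%), and with the ranges of MCL1 and BAK1 apart (15.2% of all genes). BCL2 was the only member past the threshold for a DE gene in GCN2KO cells (0.671% of all genes), on counts of at most 23 per library. In WT cells no member passed it (4.17% of all genes). A difference between the genotypes in the response to HDW was called for PMAIP1, BCL2L11 and MCL1, 3 of 10 members, beside 23.7% of all 16536 genes, and none of the 3 reached the size of a DE gene (3.31% of all genes). In the plot of CPM by library, the groups of BCL2L1 form a low WT pair and a high GCN2KO pair, and BCL2L11 is highest in the WT unwounded group, where DDIT3 is lowest.

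**Figure D1:**
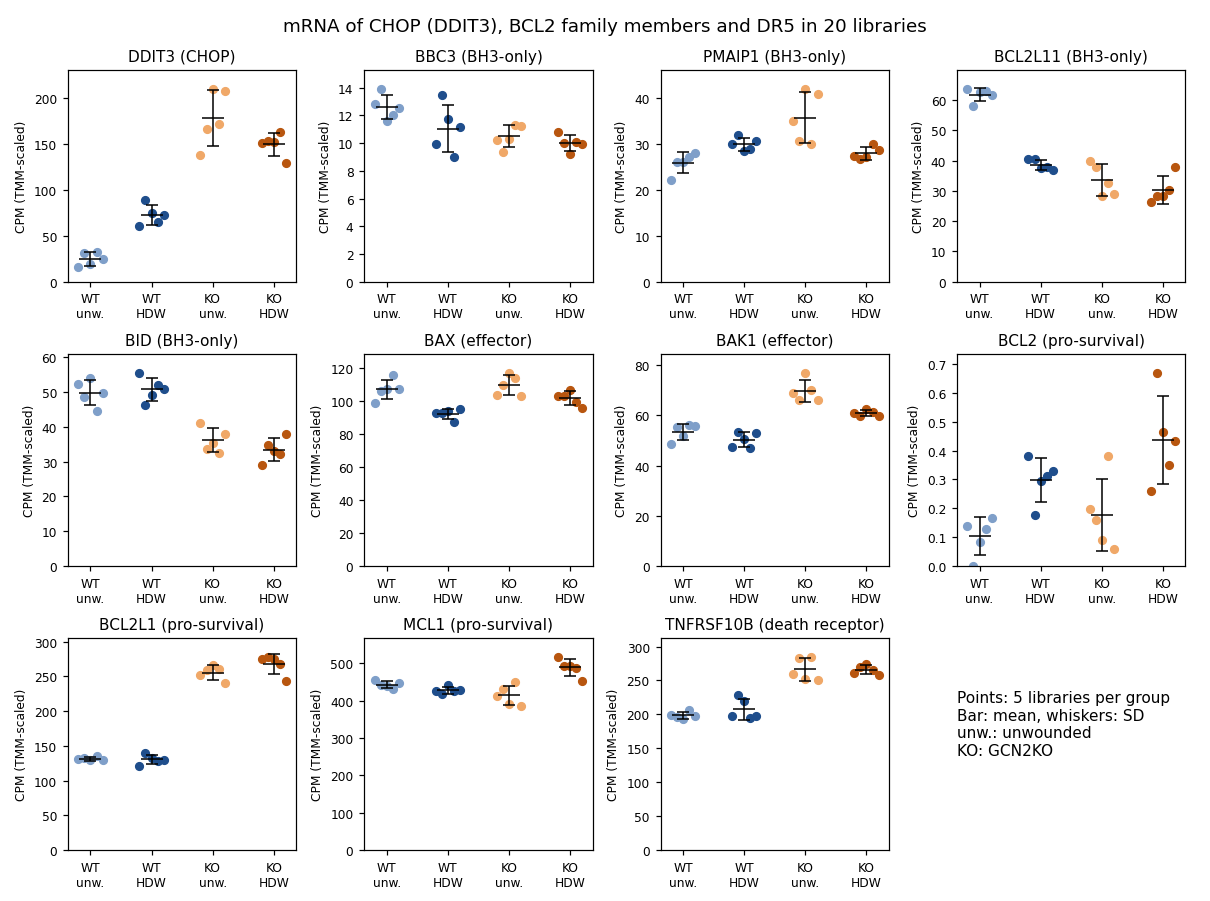
CPM (TMM-scaled, linear axes from 0) of DDIT3 and the 10 members in each of 20 libraries, by group, with points for libraries, a bar for the mean and whiskers for the SD (n = 5). DDIT3 reaches 209.9 CPM in GCN2KO unwounded cells, and BBC3 stays between 8.98 and 13.9 CPM throughout.

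BBC3 (PUMA, ENSG00000105327, chr19:47220822-47232766, minus strand), a BH3-only gene known as a CHOP target, was the weakest of the 4 BH3-only members per length. It was at 12.8, 13.9, 11.6, 12.05 and 12.5 CPM in WT unwounded and at 9.94, 13.5, 11.7, 8.98 and 11.1 CPM in WT HDW libraries. GCN2KO unwounded libraries had 10.2, 9.38, 10.3, 11.3 and 11.2 CPM and GCN2KO HDW libraries 10.8, 10.03, 9.24, 10.1 and 9.92 CPM. Every unwounded GCN2KO library lay below every unwounded WT library, and the other neighbouring groups overlapped. In unwounded cells BBC3 was 15.7% lower in GCN2KO than in WT cells (log2 fold change -0.25, adjusted p = 0.0142 by edgeR, SE 0.082), and this call was lost in counts thinned to the smallest library, at -0.22 (edgeR adjusted p = 0.0829). After HDW the difference was -0.14 (adjusted p = 0.191 by edgeR, SE 0.096), with a 95% interval of -0.35 to 0.062. Leaving out library 4 of WT HDW made that difference -0.21 (edgeR adjusted p = 0.0445). HDW moved BBC3 by -0.18 in WT (adjusted p = 0.133 by edgeR, SE 0.095) and by -0.064 in GCN2KO cells (adjusted p = 0.588 by edgeR, SE 0.080). The WT value was -0.26 (edgeR adjusted p = 0.0132) without library 2 of WT HDW. BBC3 was not called higher in any comparison in which DDIT3 was higher.

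PMAIP1 (NOXA, ENSG00000141682, chr18:59899996-59904305, plus strand), whose product mainly neutralizes MCL1, was the only 1 of the 4 BH3-only members that was higher in GCN2KO unwounded than in WT unwounded cells. Its level was 22.04, 26.1, 25.9, 27.1 and 28.01 CPM in WT unwounded and 29.9, 31.99, 28.5, 28.8 and 30.5 CPM in WT HDW libraries. It was 35.02, 30.6, 41.9, 29.9 and 40.7 CPM in GCN2KO unwounded and 27.3, 26.7, 27.1, 29.99 and 28.5 CPM in GCN2KO HDW libraries. The 2 highest values, from libraries 3 and 5 of GCN2KO unwounded, belong to the libraries with the highest DDIT3, and libraries 2 and 4 of that group lay within the WT HDW range. In unwounded cells PMAIP1 was 1.38 times as high in GCN2KO as in WT cells (log2 fold change 0.47, adjusted p = 5.38e-04 by edgeR, SE 0.098). After HDW the sign was the other and the test was not passed, at -0.10 (adjusted p = 0.0726 by edgeR, SE 0.049). That value was -0.13 (edgeR adjusted p = 0.0362) without library 4 of GCN2KO HDW.

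Wounding raised PMAIP1 in WT cells by 0.20 on the log2 scale (adjusted p = 0.00667 by edgeR, SE 0.055), and with all 20 libraries in 1 fit the value was 0.21 (edgeR adjusted p = 0.0525). In GCN2KO cells PMAIP1 fell by 0.34 after HDW (adjusted p = 0.0192 by edgeR, SE 0.094). This last call was lost without library 2 of GCN2KO HDW, at -0.33 (edgeR adjusted p = 0.0534), without library 3 of that group, at -0.33 (edgeR adjusted p = 0.0522), and without library 5 of GCN2KO unwounded, at -0.29 (edgeR adjusted p = 0.0537). Without libraries 2 and 4 of GCN2KO unwounded it was -0.49 (edgeR adjusted p = 5.68e-04). The difference between both responses was -0.56 (GCN2KO minus WT, adjusted p = 9.81e-04 by edgeR, SE 0.12), which is the same sign as for DDIT3, and it stayed called with each of the 20 libraries left out in turn (edgeR adjusted p of 2.27e-04 to 0.0025).

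Promoter sequence was examined because PMAIP1 was the BH3-only member that was higher together with DDIT3 in unwounded cells. RefSeq windows of 300 bases, of which 250 lie before a transcription start, were at hand for 8 members, all but MCL1 and TNFRSF10B. The CHOP-ATF4 composite element TGATGNAA was searched on both strands and was in the windows of none of the 8 members and of ATF3, CHAC1 and ASNS among 11 genes of the ATF4-CHOP axis. Over all genes with windows it was found in 1217 of 27305, and in 3.62% of all 35116 windows, as some genes have more than 1. The core of the CRE element, TGACGT, was in the window of 1 member, PMAIP1, beside 2633 of all 27305 genes and 7.98% of all windows. The full palindrome TGACGTCA, which contains that core, was in no window of a member, beside 614 of all 27305 genes and 1.85% of all windows. Shown are the upstream bases of PMAIP1, which holds a core, of BCL2L1, the tested member with the largest difference between genotypes, which holds none of these motifs, and of ATF3, a stress gene that holds the composite element. They are from RefSeq (GRCh38.p14), 5′ to 3′ on the strand of the gene, trimmed to bases outside protein-coding exons, with motif matches in capitals. PMAIP1 is chr18:59899746-59899995 on the plus strand, BCL2L1 chr20:31723990-31724213 on the minus strand and ATF3 chr1:212565157-212565333 on the plus strand.
PMAIP1: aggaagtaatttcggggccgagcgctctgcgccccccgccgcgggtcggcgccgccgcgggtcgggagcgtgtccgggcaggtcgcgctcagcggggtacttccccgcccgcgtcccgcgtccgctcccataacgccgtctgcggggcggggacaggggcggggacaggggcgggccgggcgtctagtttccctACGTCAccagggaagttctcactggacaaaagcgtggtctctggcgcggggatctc
BCL2L1: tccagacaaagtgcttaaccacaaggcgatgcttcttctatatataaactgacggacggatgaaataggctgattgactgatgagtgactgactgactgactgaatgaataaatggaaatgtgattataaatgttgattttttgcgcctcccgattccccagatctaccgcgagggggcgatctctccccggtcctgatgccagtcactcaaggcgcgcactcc
ATF3: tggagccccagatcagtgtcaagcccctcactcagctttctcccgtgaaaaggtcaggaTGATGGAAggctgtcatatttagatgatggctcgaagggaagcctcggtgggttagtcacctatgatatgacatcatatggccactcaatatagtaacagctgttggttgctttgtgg
The match in PMAIP1 reads ACGTCA, the core on the other strand, and begins 56 bases before the transcription start. The match in ATF3 begins 191 bases before its start. These are matches of letters in a short window, not sites shown to be bound.

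BCL2L11 (BIM, ENSG00000153094, chr2:111119378-111168444, plus strand), whose product binds all main pro-survival proteins, was highest where CHOP mRNA was lowest. It was at 63.6, 57.9, 62.5, 62.95 and 61.8 CPM in WT unwounded and at 40.5, 40.4, 37.6, 37.7 and 36.9 CPM in WT HDW libraries. In GCN2KO it was at 39.8, 37.99, 28.4, 32.7 and 28.9 CPM without wounds and at 26.4, 28.4, 28.5, 30.3 and 37.98 CPM after HDW. All WT unwounded libraries lay above the other 15, and the remaining 3 groups overlapped with their neighbours. In unwounded cells BCL2L11 was 1.84 times lower in GCN2KO than in WT cells (log2 fold change -0.88, adjusted p = 3.46e-07 by edgeR, SE 0.091). After HDW it was 1.28 times lower (-0.35, adjusted p = 0.00142 by edgeR, SE 0.081), although library 5 of GCN2KO HDW reached the WT range, and without that library the value was -0.45 (edgeR adjusted p = 8.96e-07).

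In WT cells BCL2L11 fell by 0.68 on the log2 scale after HDW (adjusted p = 2.48e-09 by edgeR, SE 0.039), a level 1.60 times lower and the largest change among the 9 members tested in WT cells. In GCN2KO cells the change was -0.13 (adjusted p = 0.421 by edgeR, SE 0.12), with a 95% interval of -0.38 to 0.12. The responses differed by 0.54 (adjusted p = 0.00319 by edgeR, SE 0.13), the opposite sign to DDIT3. Of its exonic bases 10.8% are shared with the antisense lncRNA MIR4435-2HG, which had 5464 counts over all libraries against 22778 of BCL2L11. MIR4435-2HG was higher in GCN2KO unwounded cells (0.59, adjusted p = 0.00106 by edgeR, SE 0.14) and rose after HDW in WT cells (0.49, adjusted p = 8.48e-04 by edgeR, SE 0.10), in both cases against the direction of BCL2L11. BMF, a BH3-only gene outside the 10, went the same way as BCL2L11 in 3 tests, with -0.86 in unwounded GCN2KO against WT cells (adjusted p = 4.13e-06 by edgeR, SE 0.11), -1.35 after HDW in WT cells (adjusted p = 1.16e-10 by edgeR, SE 0.056) and an interaction of 0.86 (adjusted p = 8.52e-04 by edgeR, SE 0.17). In the other tests they parted, as BMF was at 0.0026 for the genotype after HDW (adjusted p = 0.986 by edgeR, SE 0.13), where BCL2L11 was lower, and was lower after HDW in GCN2KO cells (-0.47, adjusted p = 0.0455 by edgeR, SE 0.16), where BCL2L11 was not called.

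BID (ENSG00000015475, chr22:17734138-17774770, minus strand), the substrate of caspase-8 that links death receptors to mitochondria, differed with genotype and not detectably with wounding. It was at 52.3, 48.6, 54.03, 44.6 and 49.8 CPM in WT unwounded and 55.4, 46.2, 49.3, 51.99 and 50.9 CPM in WT HDW libraries. GCN2KO unwounded libraries had 41.1, 33.7, 35.4, 32.6 and 37.9 CPM and GCN2KO HDW libraries 28.9, 34.9, 33.2, 32.3 and 37.98 CPM. The 10 GCN2KO libraries, at most 41.1 CPM, lay below the 10 WT libraries, at least 44.6 CPM. BID was 1.37 times lower in GCN2KO than in WT cells without wounds (-0.46, adjusted p = 6.38e-05 by edgeR, SE 0.077) and 1.52 times lower after HDW (-0.60, adjusted p = 2.10e-06 by edgeR, SE 0.067). HDW changed it by 0.026 in WT (95% interval -0.092 to 0.14, edgeR adjusted p = 0.726) and by -0.10 in GCN2KO cells (95% interval -0.28 to 0.081, edgeR adjusted p = 0.404).

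Of the effectors, BAK1 was higher in GCN2KO cells in both states and BAX after HDW. BAK1 (ENSG00000030110, chr6:33572547-33580293, minus strand) was at 48.6, 55.2, 51.9, 56.1 and 55.7 CPM in WT unwounded and 47.6, 53.2, 50.7, 46.9 and 52.9 CPM in WT HDW libraries. In GCN2KO unwounded libraries it was at 68.8, 66.2, 76.8, 69.9 and 66.03 CPM, and in GCN2KO HDW libraries at 61.1, 59.7, 62.6, 61.5 and 59.9 CPM. Again the GCN2KO libraries all lay above the WT libraries, with a gap from 56.1 to 59.7 CPM. The genotype difference was 0.38 in unwounded cells (adjusted p = 7.24e-05 by edgeR, SE 0.065), a fold of 1.30, and 0.28 after HDW (adjusted p = 5.62e-05 by edgeR, SE 0.044), a fold of 1.21. In WT cells HDW changed BAK1 by -0.10 (adjusted p = 0.106 by edgeR, SE 0.047), which became -0.12 (edgeR adjusted p = 0.0477) without library 2 of WT HDW and -0.12 (edgeR adjusted p = 0.0364) without library 1 of WT unwounded. In GCN2KO cells BAK1 was lower after HDW by 0.18 on the log2 scale (-0.18, adjusted p = 0.0412 by edgeR, SE 0.059), but this call was lost in 8 of 10 fits that left out 1 library, which excepted libraries 2 and 5 of GCN2KO unwounded, with edgeR adjusted p-values of 0.0304 to 0.103 over the 10. Without libraries 1 of GCN2KO unwounded and 5 of GCN2KO HDW it was -0.18 (edgeR adjusted p = 0.0791). The interaction was -0.10 (adjusted p = 0.371 by edgeR, SE 0.076).

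BAX (ENSG00000087088, chr19:48954815-48961798, plus strand) was at 99.00, 106, 107, 116 and 107 CPM in WT unwounded and 92.8, 92.7, 93.9, 87.2 and 95.01 CPM in WT HDW libraries. It was at 104, 109.5, 117, 114 and 103 CPM in GCN2KO unwounded and 103, 103, 107, 99.2 and 95.6 CPM in GCN2KO HDW libraries. Only the WT HDW group stood apart, below the other 3. The genotype difference was 0.036 in unwounded cells (95% interval -0.10 to 0.17, edgeR adjusted p = 0.625) and 0.14 after HDW (adjusted p = 0.00644 by edgeR, SE 0.040), which was not called without the filter on low counts (edgeR adjusted p = 0.0686). HDW lowered BAX by 14% in WT cells (-0.22, adjusted p = 2.46e-04 by edgeR, SE 0.039). In GCN2KO cells the change was -0.10 (adjusted p = 0.25 by edgeR, SE 0.060), and the difference between the responses was 0.11 (adjusted p = 0.304 by edgeR, SE 0.072).

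BCL2L1 (BCL-XL, ENSG00000171552, chr20:31664452-31723989, minus strand), a pro-survival gene of the outer mitochondrial membrane, had the largest genotype difference of the members tested, and was higher in GCN2KO cells. Its level was 132, 132, 129, 135 and 129 CPM in WT unwounded and 122, 140.4, 133, 128 and 130.0 CPM in WT HDW libraries. In GCN2KO unwounded libraries it was 252, 259, 267, 260.3 and 240.0 CPM and in GCN2KO HDW libraries 275, 278, 275, 268 and 244 CPM. No WT library exceeded 140.4 CPM and no GCN2KO library was under 240.0 CPM. BCL2L1 was 1.95 times as high in GCN2KO as in WT cells without wounds (log2 fold change 0.96, adjusted p = 6.35e-10 by edgeR, SE 0.057) and 2.05 times as high after HDW (1.04, adjusted p = 6.85e-10 by edgeR, SE 0.048). HDW moved it by -0.012 in WT (95% interval -0.093 to 0.070, edgeR adjusted p = 0.827) and by 0.078 in GCN2KO cells (95% interval -0.051 to 0.21, edgeR adjusted p = 0.36). Gene counts do not separate the long, pro-survival form from the short, pro-apoptotic splice form of this gene. The antisense lncRNA ABALON covers 41.3% of its exonic bases and had 1810 counts in all libraries against 114150 of BCL2L1. ABALON was also higher in GCN2KO cells, by 1.01 without wounds (adjusted p = 7.46e-06 by edgeR, SE 0.14) and by 0.77 after HDW (adjusted p = 9.58e-06 by edgeR, SE 0.10), and reads of the pair cannot be told apart without strand.

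MCL1 (ENSG00000143384, chr1:150560895-150579738, minus strand), the short-lived pro-survival protein that NOXA binds, had its highest mean in GCN2KO HDW cells. It was at 455, 441, 438, 431 and 447 CPM in WT unwounded and 427, 416, 441, 426 and 428 CPM in WT HDW libraries. It was at 414, 430.3, 392, 449 and 386 CPM in GCN2KO unwounded and 516, 493, 494, 488 and 454 CPM in GCN2KO HDW libraries. The lowest GCN2KO HDW library, number 5, lay just inside the WT unwounded range and above all WT HDW and GCN2KO unwounded libraries. After HDW MCL1 was 1.14 times as high in GCN2KO as in WT cells (0.19, adjusted p = 5.77e-04 by edgeR, SE 0.040), and in unwounded cells the difference was -0.092 (adjusted p = 0.211 by edgeR, SE 0.063). Without libraries 2 and 4 of GCN2KO unwounded the latter was -0.15 (edgeR adjusted p = 0.0318), so that MCL1 was lower. HDW raised MCL1 in GCN2KO cells by 0.25 (adjusted p = 0.0164 by edgeR, SE 0.065), and moved it by -0.053 in WT cells (adjusted p = 0.164 by edgeR, SE 0.031). The responses differed by 0.29 (adjusted p = 0.00374 by edgeR, SE 0.070), in the direction opposite to PMAIP1.

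BCL2 (ENSG00000171791, chr18:63123346-63320128, minus strand), the founding pro-survival gene, was close to the limit of detection. It had 2, 0, 2, 4 and 5 counts in the WT unwounded libraries and 13, 6, 10, 9 and 11 counts in the WT HDW libraries. GCN2KO unwounded libraries had 5, 3, 3, 13 and 2 counts and GCN2KO HDW libraries 9, 23, 16, 6 and 13 counts. No group reached a mean of 1 CPM. The filter on low counts left it out of the unwounded comparison and of HDW in WT cells. In GCN2KO cells BCL2 was higher after HDW by 1.30 on the log2 scale (95% interval 0.41 to 2.19, edgeR adjusted p = 0.0373). This call was lost without any of libraries 2, 3 or 4 of GCN2KO HDW or 1, 3 or 5 of GCN2KO unwounded, with edgeR adjusted p-values of 0.00686 to 0.11 over the 10 fits, and without libraries 1 of GCN2KO unwounded and 5 of GCN2KO HDW together it was 1.34 (edgeR adjusted p = 0.0747). The genotype difference after HDW was 0.57 (adjusted p = 0.0861 by edgeR, SE 0.28), and 0.73 (edgeR adjusted p = 0.028) without library 1 of GCN2KO HDW. A lowering of BCL2 with DDIT3 could not be judged at this depth. WT unwounded libraries, with the lowest DDIT3, already had at most 5 counts of BCL2. Relative to library size the means were 0.104 CPM in WT unwounded, 0.177 in GCN2KO unwounded, 0.299 in WT HDW and 0.436 in GCN2KO HDW cells. This order of the groups was not that of DDIT3, but each group overlapped with the next, so the order is not read further.

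TNFRSF10B (DR5, ENSG00000120889, chr8:23020133-23069031, minus strand), the TRAIL receptor gene that CHOP is known to activate, was higher in GCN2KO cells in both states and did not detectably respond to wounding. It was at 199, 197, 193, 207 and 198 CPM in WT unwounded and 197, 228, 220.2, 194 and 198 CPM in WT HDW libraries. It was at 260.2, 284, 252, 284 and 251 CPM in GCN2KO unwounded and 261, 270.3, 274, 265 and 257 CPM in GCN2KO HDW libraries. The WT libraries reached 228 CPM and the GCN2KO libraries began at 251 CPM. The difference between genotypes was a fold of 1.34 in unwounded cells (log2 0.43, adjusted p = 1.50e-05 by edgeR, SE 0.062) and of 1.28 after HDW (log2 0.36, adjusted p = 1.59e-05 by edgeR, SE 0.049). While DDIT3 rose 2.90-fold after HDW in WT cells, TNFRSF10B changed by 0.060 (95% interval -0.038 to 0.16, edgeR adjusted p = 0.298). In GCN2KO cells its change was 0.0067 (95% interval -0.13 to 0.14, edgeR adjusted p = 0.95). RHOBTB2, which shares 7.53% of the exonic bases on the opposite strand, was lower in GCN2KO cells (-0.53 without wounds, adjusted p = 7.48e-04 by edgeR, SE 0.12), against the direction of TNFRSF10B. In the plot of log2 fold changes, DDIT3 lies apart from all members for the genotype in unwounded cells, and close to BCL2L1 for the genotype after HDW.

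**Figure D2:**
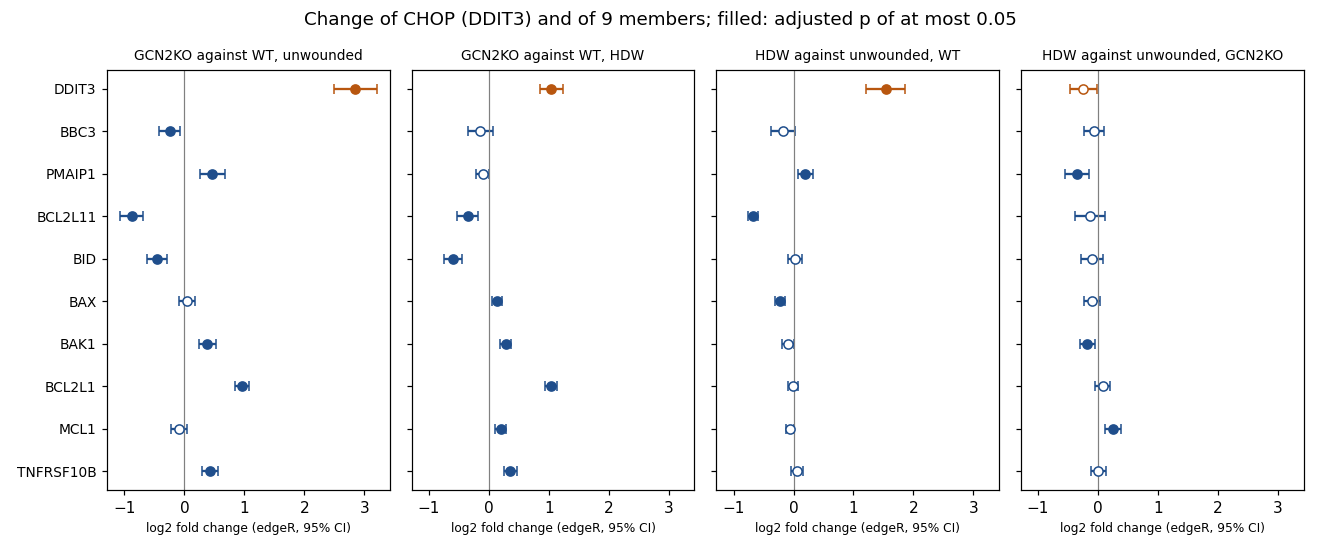
Log2 fold changes (points) with 95% intervals (whiskers) from edgeR for DDIT3 and the 9 members other than BCL2, in 4 comparisons, with filled points for an adjusted p of at most 0.05. DDIT3 lies at 2.85 for GCN2KO against WT in unwounded cells, where the members span -0.88 (BCL2L11) to 0.96 (BCL2L1).

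The levels of the members were compared with each other per kilobase of exon. The length used joins all annotated exons of a gene and can exceed that of the transcripts expressed, so the order between genes is approximate. MCL1 had the highest mean of the 10 in every group, at 71.1 ± 1.46 CPM per kb in WT unwounded and 78.6 ± 3.59 CPM per kb in GCN2KO HDW cells (SD, n = 5). BCL2L1 was number 4 in both WT groups, with 31.3 ± 0.623 CPM per kb in unwounded and 31.1 ± 1.63 after HDW, behind TNFRSF10B and BAX. It was number 2 in both GCN2KO groups, with 60.9 ± 2.44 and 63.8 ± 3.33 CPM per kb, and in GCN2KO unwounded cells its range overlapped that of MCL1 at 66.6 ± 4.22 CPM per kb. TNFRSF10B had 39.7 ± 1.01 CPM per kb in WT unwounded and 53.1 ± 3.30 in GCN2KO unwounded cells, and BAX 41.4 ± 2.30 and 42.3 ± 2.36. All 4 BH3-only genes lay under the effectors in each group, with PMAIP1 highest, at 11.8 to 16.3 CPM per kb over the group means, and BBC3 lowest, at 3.14 to 3.95 CPM per kb. In WT unwounded cells PMAIP1 and BID overlapped, as did BAX and TNFRSF10B, whereas the other neighbours in that order were apart. BCL2 was lowest throughout, at no more than 0.0345 CPM per kb.

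**Figure D3:**
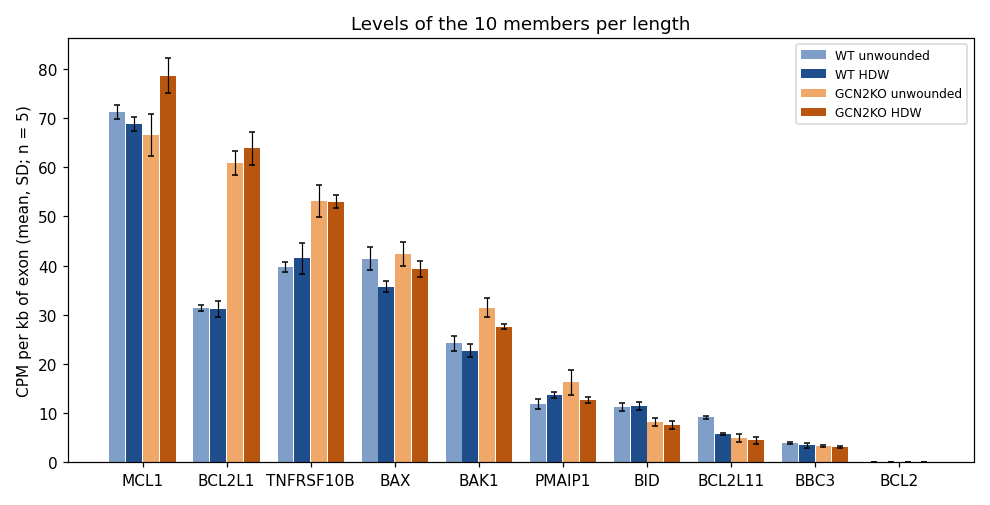
Mean CPM per kilobase of exon (bars from 0, whiskers SD, n = 5) of the 10 members in the 4 groups. MCL1 is highest in each group, and the bars of BCL2L1 rise from 31.3 in WT unwounded to 60.9 CPM per kb in GCN2KO unwounded cells.

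To see whether libraries with more CHOP mRNA had more of a member within the same group, the mean of each group was subtracted on the log2 scale and the deviations of the 20 libraries were correlated with those of DDIT3. The p-values are two-sided, from 100000 permutations within groups, and adjusted over all 16535 other genes tested. With libraries left out or under other settings 10000 permutations were used, so adjusted p-values close to 0.05 are less exact there. No member passed the threshold, which 6.58% of all genes did by Pearson's r, and 6 of 10 members had an unadjusted p under 0.05, as did 21.0% of all genes, and 95% of all genes lay between an r of -0.61 and 0.67. BAK1 had Pearson's r = 0.70 (p = 0.00393, adjusted p = 0.0561) and Spearman's rho = 0.70 (p = 0.00486, adjusted p = 0.0761). For BID the values were Pearson's r = -0.60 (p = 0.00408, adjusted p = 0.0572) and Spearman's rho = -0.58 (p = 0.0128, adjusted p = 0.129), and for BCL2L11 they were Pearson's r = -0.48 (p = 0.00431, adjusted p = 0.0588) and Spearman's rho = -0.50 (p = 0.0251, adjusted p = 0.185). PMAIP1 had Pearson's r = 0.56 (p = 0.0236, adjusted p = 0.161) and Spearman's rho = 0.55 (p = 0.0249, adjusted p = 0.184). The known CHOP targets BBC3, with Pearson's r = 0.41 (p = 0.0654, adjusted p = 0.276) and Spearman's rho = 0.42 (p = 0.101, adjusted p = 0.371), and TNFRSF10B, with Pearson's r = 0.24 (p = 0.275, adjusted p = 0.576) and Spearman's rho = 0.23 (p = 0.339, adjusted p = 0.657), also did not pass.

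Among the remaining members r was 0.55 for BAX, 0.43 for BCL2L1, -0.50 for BCL2 and -0.27 for MCL1. The value for BCL2 (p = 0.123, adjusted p = 0.387 by permutation) comes from 0 to 23 counts per library. It ranged from -0.64 to -0.37 with single libraries left out. Without libraries 1 and 4 of WT unwounded, the 2 farthest from the median in DDIT3, r was 0.58 for BAK1, -0.56 for BID, -0.61 for BCL2L11, 0.43 for PMAIP1 and 0.64 for BBC3, and BCL2L11 then passed (r = -0.61, adjusted p = 0.0491). Deviations of DDIT3 correlated with those of library size by an r of 0.32, whose part in these values was not tested. Leaving out single libraries gave 0 to 3 members past the threshold, the most without library 5 of GCN2KO unwounded, where BAK1 (r = 0.79, adjusted p = 0.0167), BID (r = -0.65, adjusted p = 0.0344) and BCL2L1 (r = 0.55, adjusted p = 0.0229) passed. BCL2L11 passed without library 4 of WT unwounded (r = -0.55, adjusted p = 0.0437), 2 of WT HDW (r = -0.53, adjusted p = 0.0479) or 4 of GCN2KO HDW (r = -0.49, adjusted p = 0.048). BAK1 passed without library 1 (r = 0.73, adjusted p = 0.0391) and BID without library 2 (r = -0.63, adjusted p = 0.0497) of GCN2KO unwounded. In the plot of members against DDIT3, BBC3 spans a narrow range over all levels of DDIT3, and BCL2L1 and TNFRSF10B form a low and a high band by genotype.

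**Figure D4:**
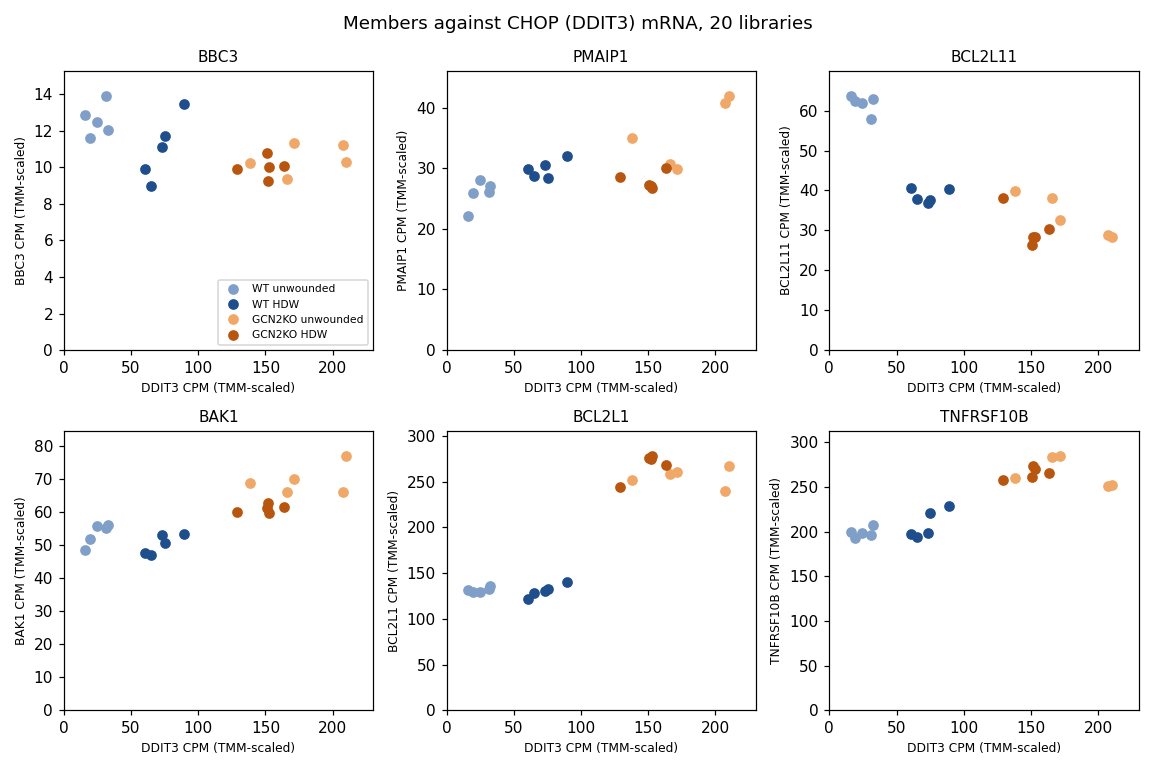
CPM of 6 members (vertical axes from 0) against CPM of DDIT3 (horizontal axes from 0) in 20 libraries, coloured by group. BCL2L11 is at 57.9 to 63.6 CPM in the WT unwounded libraries at the left and at 28.4 to 39.8 CPM in the GCN2KO unwounded libraries at the right.

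Members whose group means spanned at least 0.5 on the log2 scale were compared with all 16535 genes tested by the root mean square (RMS) difference of their centred log2 CPM over the 20 libraries, in which 0 is an identical profile. BCL2L11, BID, BCL2L1 and BCL2 met this limit, as did DDIT3. Closest to BCL2L11 were PRKCD, a kinase gene of keratinocyte differentiation, at 0.0516, WNT5A, a WNT ligand gene, at 0.0833, and FKBP5, a chaperone gene induced by glucocorticoids, at 0.103. Closest to BCL2L1 were PRSS8, the gene of the epithelial serine protease prostasin, at 0.0762, and NSF and GOLPH3, both of membrane traffic, at 0.0798 and 0.0911. For BID they were SNX5, ARPC2 and PCBP2, at 0.0788 to 0.0798. No gene came nearer to BCL2 than PRMT5-AS1, at 0.703, on counts of few reads. DDIT3 was followed by ENSG00000250746 at 0.191, the cystine transporter gene SLC7A11 at 0.205 and HERPUD1, a gene of protein degradation at the endoplasmic reticulum, at 0.211, and no member was among its nearest 3.

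Most other genes of the ATF4-CHOP axis moved in the direction of DDIT3 between the unwounded genotypes and after HDW in WT cells. Of 11 genes of the ATF4-CHOP axis, DDIT3 and ATF4 included, 10 were higher in GCN2KO than in WT unwounded cells and none lower, where 33.4% of all genes were higher, with a median log2 fold change of 1.42 beside 0.0042 over all genes. In this paragraph DDIT3 itself counts wherever it was called. The list was chosen with earlier results of these data known, so its counts are a description and not a test. The largest differences were those of ATF3 (3.24, adjusted p = 5.89e-11 by edgeR, SE 0.15) and TRIB3 (3.69, adjusted p = 1.17e-10 by edgeR, SE 0.19), a pseudokinase gene induced by CHOP. After HDW, 7 were higher and 2 lower (35.9% and 35.8% of all genes), with a median of 0.43. The 2 lower genes were ASNS (-0.31, adjusted p = 0.00207 by edgeR, SE 0.076) and CEBPB (-0.24, adjusted p = 0.00327 by edgeR, SE 0.062), where DDIT3 was higher. In WT cells HDW raised 9 of the 11 (26.1% of all genes), with the largest changes in TRIB3 (2.62, adjusted p = 1.30e-07 by edgeR, SE 0.22), CHAC1 (2.23, adjusted p = 2.59e-08 by edgeR, SE 0.16) and ASNS (2.12, adjusted p = 6.70e-09 by edgeR, SE 0.13). In GCN2KO cells it raised none and lowered ASNS (-0.29, adjusted p = 0.0237 by edgeR, SE 0.083) and ATF4 (-0.26, adjusted p = 0.0246 by edgeR, SE 0.074). ATF4 kept that call in 4 of 10 fits that left out 1 library (edgeR adjusted p of 0.0128 to 0.0636), those without library 5 of GCN2KO HDW or 2, 3 or 4 of GCN2KO unwounded. In the test of the interaction, 10 of the 11 were called, all negative (12.5% of all genes).

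Around the 10 members, 8 of 10 other BCL2 family genes could be tested between the genotypes in unwounded cells, of which 3 were higher and 4 lower in GCN2KO cells, beside 33.4% and 33.1% of all genes (median log2 fold change -0.25). BNIP3, a mitophagy gene with a BH3-like domain, was higher (1.12, adjusted p = 1.50e-09 by edgeR, SE 0.072), as was the BH3-only gene BAD (0.51, adjusted p = 8.75e-05 by edgeR, SE 0.087). BAD shares 23.7% of its exonic bases with a gene on the opposite strand. The BH3-only gene HRK was lower (-3.17, adjusted p = 1.11e-07 by edgeR, SE 0.30), with HRK at 3.47 CPM or less in each group mean. The BH3-only genes BIK (-0.71, adjusted p = 1.62e-05 by edgeR, SE 0.10) and BMF, given above, were also lower. After HDW 2 were higher and 4 lower (35.9% and 35.8% of all genes). HRK (-2.89, adjusted p = 6.87e-07 by edgeR, SE 0.29) and BIK (-0.87, adjusted p = 3.27e-08 by edgeR, SE 0.063) were then lower. BAD was not called (0.0075, adjusted p = 0.949 by edgeR, SE 0.098), nor was BMF. In WT cells HDW raised 2 and lowered 5 of 9 tested (26.1% and 25.2% of all genes), and in GCN2KO cells it raised 1 and lowered 5 of 7 (11.9% and 10.8%).

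Among 10 further genes of the death receptor pathway, 4 were higher and 2 lower in GCN2KO unwounded than in WT unwounded cells, beside 33.4% and 33.1% of all genes. After HDW they were 5 and 3, beside 35.9% and 35.8% of all genes, so the counts of this list are not far from the background. The decoy receptor gene TNFRSF10D, whose product binds TRAIL without signalling death, had a larger genotype difference than TNFRSF10B, with 1.54 in unwounded cells (adjusted p = 4.55e-10 by edgeR, SE 0.088) and 1.84 after HDW (adjusted p = 1.50e-09 by edgeR, SE 0.095). TNFSF10, the gene of TRAIL itself, was lower in GCN2KO cells, with -1.53 in unwounded cells (adjusted p = 3.28e-07 by edgeR, SE 0.16) and -1.27 after HDW (adjusted p = 1.30e-05 by edgeR, SE 0.17). HDW lowered TNFSF10 in WT cells by 1.16 (adjusted p = 4.73e-11 by edgeR, SE 0.044) and in GCN2KO cells by 0.88 (adjusted p = 0.0163 by edgeR, SE 0.23). The other death receptor for TRAIL, TNFRSF10A, was higher in GCN2KO unwounded cells (0.64, adjusted p = 1.65e-06 by edgeR, SE 0.076) and, unlike TNFRSF10B, was called higher after HDW in WT cells (0.41, adjusted p = 1.32e-05 by edgeR, SE 0.054). The difference between both receptors in that response was not tested. In WT cells HDW raised 2 and lowered 4 of the 10 (26.1% and 25.2% of all genes), and in GCN2KO cells 1 and 2 (11.9% and 10.8%).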

How the data were processed

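Total RNA of 20 NTERT cultures was sequenced, for which the authors used Trimmomatic for trimming, STAR for alignment (GRCh38) and featureCounts for assigning unique alignments to exons. What they deposited is a table of raw counts of 57500 genes for each library, with no normalization. The annotation release and strand setting are not given in the sources used here. The authors used DESeq2. Groups came from the sample titles. Depth was 14083504 to 34611570 counts per library, so that genes of few counts, such as BCL2, have wide intervals.

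Genes kept by filterByExpr (minimum count 10) were tested on counts with edgeR 4.0.16 (TMM, quasi-likelihood F test, Benjamini-Hochberg adjustment) in R 4.3.3, with the 10 libraries of a comparison, and with all 20 for the interaction. A gene was called at an adjusted p of 0.05. Intervals are 95% intervals, and CPM used TMM library sizes of all 20 libraries. Exon lengths and overlaps came from GENCODE 44, in which 56410 of the 57500 identifiers were found. Correlations were computed with numpy 2.4.6. Their p-values had been planned to be adjusted over the 10 members and were adjusted over all genes instead. Alternatives were DESeq2 1.42.0, other filters and normalizations, thinned counts, all 20 libraries, a replicate block and leaving out libraries. In counts simulated for the unwounded comparison, 93 of 100 genes changed by 0.5 on the log2 scale and 100 of 100 changed by 1 were called, with 12 false calls over 15348 genes. For HDW in GCN2KO cells these were 87 and 100, with 6 false calls over 15791 genes, and for the interaction 58 and 99, with 8 over 16536 genes. Changes were put only in genes with an expected mean above 50 counts, all other genes were left unchanged, and all genes had the same dispersion. The real comparisons differ in this, so these rates are not the power for the members, and genes of few counts such as BCL2 were not covered.

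The members and gene lists (ATF4-CHOP axis, other BCL2 family, death receptor pathway, apoptosome and caspases, cell type markers) were chosen with earlier results of these data known. Named besides the members were the up to 4 genes of a list with the smallest adjusted p in a comparison, from which those with a bearing on the members were taken, genes sharing exonic bases with a member, and the 3 genes nearest in profile. BAD and CEBPB were named in addition to these. Some genes and a further list are not reported here.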

Additional observations from a re-analysis of the deposited data

Results flagged for a closer look

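Among 52 groups of 5 libraries checked, 1 had a library far from the others by Dixon's criterion of 0.71, which chance gives in about 1 of 20 groups: BCL2L1 was at 244 CPM in library 5 of GCN2KO HDW, and the other 4 were at 268 to 278 CPM. This is 1 of the libraries nearest to WT cells in the principal component analysis, and at 244 CPM it was still above every WT library.

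By the interaction test of edgeR on all 20 libraries, HDW had different effects in WT and GCN2KO cells for 3 members and for both regulators. The difference, GCN2KO minus WT on the log2 scale, was -1.80 for DDIT3 (edgeR adjusted p = 8.73e-07) and -0.61 for ATF4 (edgeR adjusted p = 2.85e-05). It was -0.56 for PMAIP1 (edgeR adjusted p = 9.81e-04), 0.54 for BCL2L11 (edgeR adjusted p = 0.00319) and 0.29 for MCL1 (edgeR adjusted p = 0.00374). PMAIP1 thus shared the sign of DDIT3, and BCL2L11 and MCL1 had the other.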

How the results depend on the processing

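Of 366 values of members under alternative settings, 349 kept their direction and side of the threshold, as did 545 of 580 with 1 library left out and 64 of 68 under the alternatives chosen after seeing the data. The replicate numbers did not pair the libraries (mean correlation of same-numbered deviations between -0.11 and 0.033 over the comparisons). With the replicate block 7, 7, 3, 4 and 3 called members became 7, 7, 4, 2 and 3 (genotype without wounds, genotype after HDW, HDW in WT, HDW in GCN2KO, interaction), and over all genes HDW in GCN2KO cells gave 1239 higher and 882 lower genes. The cause of the changes below was not tested.

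Over all genes, those past the threshold for a DE gene numbered 2521 for the genotype without wounds, 2368 after HDW, 640 for WT cells after HDW, 106 for GCN2KO cells after HDW and 547 for the interaction. With a mean of at least 50 counts, which tests fewer genes, they were 1630, 1328, 371, 40 and 280, and with no filter 3920, 3681, 998 and 199 for the first 4. HDW in GCN2KO cells gave 1880 higher and 1706 lower genes. There, leaving out libraries 2 and 4 of GCN2KO unwounded gave 2936 higher, 2856 lower and 252 past that threshold, all 20 libraries gave 2840 lower, and leaving out single libraries gave 1183 to 2332 higher and 887 to 2185 lower.

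For HDW in WT, 2 members were higher by DESeq2 and with no filter, 1 (BCL2) passed the DE threshold by DESeq2, with all 20 libraries and with no filter, and 4 were lower with library size alone (2 to 4 with single libraries left out, 4 without library 2 of WT HDW). For HDW in GCN2KO, 1 member was higher and 0 passed the DE threshold by DESeq2, at a mean of 50 counts, with the block, in thinned counts and without libraries 1 and 5. There 1 was lower with no filter, with the block, in thinned counts and without libraries 1 and 5. Single libraries gave 1 to 2 higher, 0 to 2 lower and 0 to 1 past the DE threshold. The correlation with DDIT3 gave 1 member without the 2 farthest libraries, with DESeq2 size factors and with library size alone, and 0 to 3 with single libraries left out.

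Changes of sign were met in values near 0. With library size alone BAX was at -0.0014 between unwounded genotypes and BID at -0.013 for HDW in WT, and BCL2L1 was at 0.0019 there with no filter. TNFRSF10B for HDW in GCN2KO was at -0.0026 by DESeq2, -0.0044 with its size factors, -0.0034 with all 20 libraries and -0.0022 with no filter. The interaction of BCL2 was 0.60 without libraries 2 and 4. With single libraries left out, HDW in WT ranged from -0.017 to 0.057 for BID and from -0.040 to 0.014 for BCL2L1. HDW in GCN2KO ranged from -0.061 to 0.0020 for EIF2AK4 and from -0.023 to 0.033 for TNFRSF10B. The interaction ranged from -0.019 to 0.051 for EIF2AK4 and from -0.34 to 0.51 for BCL2. Depth limits BCL2, with at most 23 counts in a library.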

Other observations

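Downstream of the BCL2 family, among 12 genes of the apoptosome, caspases and inhibitors of apoptosis, 5 were higher and 3 lower in GCN2KO than in WT unwounded cells (33.4% and 33.1% of all genes), and 6 and 3 after HDW (35.9% and 35.8%). HDW raised 2 and lowered 6 of them in WT cells (26.1% and 25.2% of all genes), and raised 0 and lowered 5 of 11 tested in GCN2KO cells (11.9% and 10.8%). CYCS, the gene of cytochrome c, which leaves mitochondria through active BAX and BAK1, was 2.05 times as high in GCN2KO as in WT unwounded cells (log2 1.03, adjusted p = 3.24e-07 by edgeR, SE 0.11) and rose after HDW in WT cells (0.62, adjusted p = 1.40e-09 by edgeR, SE 0.033). BIRC5, a mitotic member of the inhibitor family whose mRNA is high in dividing cells, was lower in GCN2KO cells by 3.09 on the log2 scale in unwounded cells (adjusted p = 1.03e-06 by edgeR, SE 0.35) and by 3.09 after HDW (adjusted p = 2.28e-06 by edgeR, SE 0.35). Its level was low in every group, with means of 1.37 CPM in WT and 0.147 CPM in GCN2KO unwounded cells. After HDW these means were 1.17 CPM in WT and 0.129 CPM in GCN2KO cells.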
